A study of Mus musculus with 2 samples.

Results

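The Rbfox, Nova and Elavl genes encode RNA-binding proteins that set splicing and RNA stability in neurons. The 9 genes described here, Rbfox1, Rbfox2, Rbfox3, Nova1, Nova2, Elavl1, Elavl2, Elavl3 and Elavl4, were chosen by name out of 21851 protein-coding genes of the GENCODE M21 basic annotation, by a rule that used no measured value but with earlier results of these data known. Chromatin accessibility was measured by DNase-seq, in which the enzyme DNase I cuts DNA that is not covered by nucleosomes, in mouse hippocampus. Both samples belonged to 1 group of male mice of the strain B6CASTF1/J, a first-generation hybrid of C57BL/6J and CAST/EiJ, aged 8 to 10 months, with no treatment or allele named in the labels. The tissue label names a layer of the hippocampus without saying which. Replicate 1 and replicate 2 were different pools, each made from 2 biosamples. Their donor label is the same, and whether the pools came from separate mice is not said. With 1 group there was no comparison of conditions, and the values below describe this tissue with the spread over 2 replicates. For each gene, all peaks of the longer deposited peak list that overlapped the gene or the 10 kb to each side were taken, which gave 263 peaks in replicate 1 and 207 in replicate 2, out of 144270 and 124426.

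RBFOX proteins bind the RNA word UGCAUG, and NOVA proteins bind clusters of YCAY, where Y is C or U. Both act in the nucleus, where binding upstream or downstream of an alternative exon favours its skipping or its inclusion. ELAVL proteins, also called Hu proteins, bind U-rich and AU-rich stretches, often in the tail of a messenger RNA, and keep that RNA from decay. RBFOX3 is the antigen NeuN, the usual marker of mature neurons, and RBFOX1 and RBFOX2 also act outside the brain. Rbfox1 and Rbfox3 are long genes with several alternative promoters, and ELAVL1, also called HuR, is made in most cell types while ELAVL2, ELAVL3 and ELAVL4 are largely neuronal.

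Of the sites on which the results turn, 10 are printed here from the C57BL/6J reference (GRCm38, the same assembly as mm10), on the strand of the gene and from 5′ to 3′. Capitals mark the bases that lay inside deposited footprints of both replicates, short stretches within a peak that are cut less than their surroundings, as under a bound protein. Stretches that belong to exons of coding genes were left out. The first 3 are promoter peaks that were among the tallest of the 9 genes. Nova1 (chr12:46819481-46819680, minus strand), Nova2 (chr7:18925261-18925480, plus strand) and Elavl2 (chr4:91376528-91376680, minus strand) read as follows.
Nova1 promoter: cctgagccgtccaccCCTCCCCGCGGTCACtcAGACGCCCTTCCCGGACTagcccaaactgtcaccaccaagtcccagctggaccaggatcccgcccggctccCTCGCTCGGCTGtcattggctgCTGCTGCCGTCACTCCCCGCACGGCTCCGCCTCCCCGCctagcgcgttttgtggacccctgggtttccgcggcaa
Nova2 promoter: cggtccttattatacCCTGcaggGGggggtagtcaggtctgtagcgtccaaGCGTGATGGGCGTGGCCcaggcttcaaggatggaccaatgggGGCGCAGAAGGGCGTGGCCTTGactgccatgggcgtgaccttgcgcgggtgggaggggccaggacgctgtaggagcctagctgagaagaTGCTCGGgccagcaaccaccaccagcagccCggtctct
Elavl2 promoter: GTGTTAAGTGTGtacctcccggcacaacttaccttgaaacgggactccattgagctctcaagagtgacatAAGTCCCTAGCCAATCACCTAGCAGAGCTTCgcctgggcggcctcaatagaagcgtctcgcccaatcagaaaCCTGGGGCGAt
The Nova2 peak holds the letters GGGCGTGGC, the GC-box-like word of KLF proteins, at bases 59 and 103, both wholly inside footprints of both replicates. In the Elavl2 peak the word CCAAT, the box bound by NF-Y, stands at base 81 inside a footprint of both replicates, and again at base 132 outside one.

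The next 7 are distal sites, outside every coding promoter window, shown because they were the tallest of their gene or carried searched words inside shared footprints. They are 2 of the 3 tallest sites in Rbfox1, called A and C (chr16:6018761-6018960 and chr16:6480441-6480640, plus strand), the tallest and the next in Rbfox3, called A and B (chr11:118738981-118739180 and chr11:118793581-118793840, minus strand), and the tallest of Nova2 (chr7:18922961-18923180, plus strand), Elavl1 (chr8:4322581-4322702, minus strand) and Elavl3 (chr9:22054421-22054640, minus strand).
Rbfox1 intron site A: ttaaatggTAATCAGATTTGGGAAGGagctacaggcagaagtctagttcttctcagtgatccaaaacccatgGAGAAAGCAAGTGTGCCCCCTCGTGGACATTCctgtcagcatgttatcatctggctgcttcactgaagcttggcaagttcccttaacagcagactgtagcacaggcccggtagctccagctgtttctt
Rbfox1 intron site C: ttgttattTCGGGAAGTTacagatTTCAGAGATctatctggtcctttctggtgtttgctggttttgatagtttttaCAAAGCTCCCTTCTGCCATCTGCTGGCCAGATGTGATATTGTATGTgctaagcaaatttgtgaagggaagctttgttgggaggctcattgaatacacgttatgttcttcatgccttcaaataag
Rbfox3 intron site A: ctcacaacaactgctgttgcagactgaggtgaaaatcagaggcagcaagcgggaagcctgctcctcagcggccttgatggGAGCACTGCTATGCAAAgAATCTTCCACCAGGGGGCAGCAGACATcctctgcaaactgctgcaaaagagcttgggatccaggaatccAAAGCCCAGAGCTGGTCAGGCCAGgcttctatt
Rbfox3 intron site B: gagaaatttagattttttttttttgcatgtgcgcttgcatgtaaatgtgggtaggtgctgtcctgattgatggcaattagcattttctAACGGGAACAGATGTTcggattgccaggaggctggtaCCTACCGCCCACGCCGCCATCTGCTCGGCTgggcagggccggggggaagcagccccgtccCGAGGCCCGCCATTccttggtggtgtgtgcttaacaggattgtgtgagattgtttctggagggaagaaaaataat
Nova2 upstream site: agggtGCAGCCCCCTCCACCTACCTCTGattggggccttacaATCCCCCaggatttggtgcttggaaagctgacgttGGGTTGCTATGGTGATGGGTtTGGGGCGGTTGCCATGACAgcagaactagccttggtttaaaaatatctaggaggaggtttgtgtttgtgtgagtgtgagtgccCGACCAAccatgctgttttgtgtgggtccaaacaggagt
Elavl1 intron site: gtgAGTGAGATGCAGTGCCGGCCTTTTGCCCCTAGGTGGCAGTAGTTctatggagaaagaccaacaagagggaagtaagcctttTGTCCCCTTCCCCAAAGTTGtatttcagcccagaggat
Elavl3 upstream site: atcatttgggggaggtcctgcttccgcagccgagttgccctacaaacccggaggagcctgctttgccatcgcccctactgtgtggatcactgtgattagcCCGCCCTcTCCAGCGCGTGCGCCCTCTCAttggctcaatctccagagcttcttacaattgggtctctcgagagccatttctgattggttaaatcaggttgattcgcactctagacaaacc
Rbfox3 site A holds CAGGGGGC, a core word of the insulator protein CTCF, at base 109 inside a shared footprint. Rbfox1 site A holds the shorter CTCF word AGGGGGC on the other strand at base 87, again inside one, within an unbroken run of 32 capitals. Rbfox1 site C has CAGATG, an E-box word of NEUROD proteins, at base 104 and, on the other strand, at base 93, within a single run of 46 capitals. Rbfox3 site B has that word at base 97 and, on the other strand, at base 143. The EGR word GCGTGGGCG stands at base 131, also on the other strand, and all 3 matches lie inside shared footprints. Its GC box GGGCGG, on the other strand at base 130, overlaps the EGR word. The Nova2 upstream site carries the RFX word GTTGCCATG at base 106, overlapping the GC box at base 101, both inside shared footprints, and AGGGGGC on the other strand at base 9. These matches are letters in a window and were not tested as binding sites. The search took exact words only. A longer or variant form of a motif, of CTCF or another protein, could overlap them and was not looked for.

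Open promoters were found for all 9 genes, which had a peak within 1000 bp of an annotated coding start site in both replicates. Over all protein-coding genes that held for 62.6%. The tallest promoter peaks fell into 2 ranges. Elavl1, Elavl2, Nova2 and Nova1 stood between 6.09 and 8.11 in the deposited peak height, a signal without a stated unit, and Rbfox2, Elavl3, Elavl4, Rbfox1 and Rbfox3 stood between 1.15 and 4.47. Below 200 steps, heights were whole multiples, within 0.1 step, of a step of 0.00656 in replicate 1 (111906 peaks) and 0.00646 in replicate 2 (96430 peaks). The median peak of 0.643 or 0.639 was 98 or 99 such steps. The median over all genes with a promoter peak in both replicates was 3.26, as the mean of the replicates, against 3.73 for the 9 genes. Peaks of paired replicates were lower in replicate 2 by a median of -0.19 on the log2 scale over all 101938 pairs, and heights were compared after taking out that shift. In a bulk tissue, a lower peak from fewer open cells and one from less cutting per cell cannot be told apart.

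Marker genes of neurons were open at their promoters. All 5 of 5 general neuron marker genes and 6 of 6 markers of excitatory hippocampal neurons were open in both replicates, with 3 of 5 for inhibitory neurons. Rbfox3 is itself among the 5 general neuron markers, so 4 of these are independent of the 9 genes. Markers of glia were open as well, at 4 of 5 for oligodendrocytes and 4 of 5 for astrocytes. Microglia and endothelial cells each had 1 of 5 open in both replicates and choroid plexus 1 of 4. A further 3 microglia, 3 endothelial, 2 choroid plexus and 1 inhibitory neuron genes were open in 1 replicate alone, at 0.269 to 0.775. Among 5 liver genes only Ttr was open, at 0.84 and 0.704. Ttr is also the 1 open choroid plexus gene, and the other 4 liver genes were open in neither replicate. The part of glial cells in the peaks of the 9 genes was not tested.

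**Figure D1:**
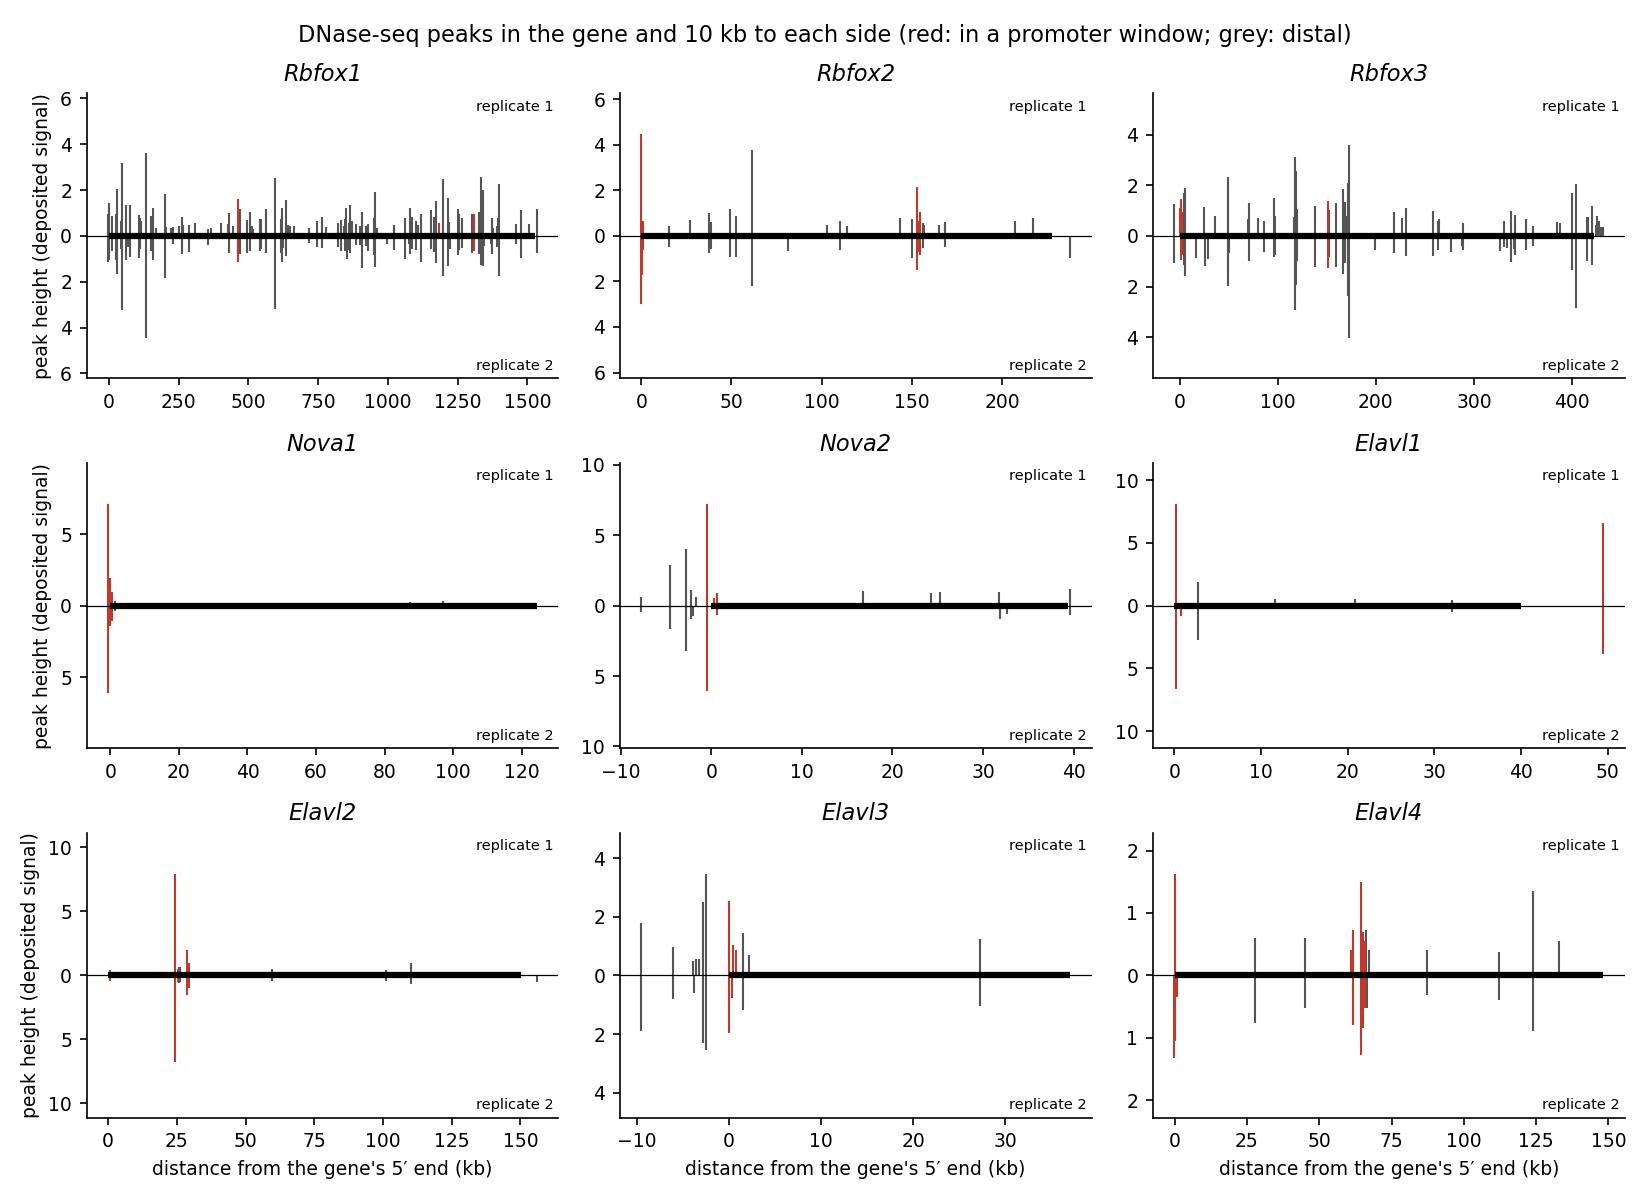
Every peak in the regions of the 9 genes, by distance from the annotated 5′ end of the gene (kb, in the direction of transcription). Heights (deposited signal) of replicate 1 point up and those of replicate 2 point down, red lines lie in a coding promoter window and grey lines are distal, and the black bar is the gene; Rbfox1 and Rbfox3 carry their tallest peaks inside introns, Nova1 shows almost nothing beyond its promoter, and the far red line of Elavl1 is the promoter peak of its neighbour Timm44.

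Rbfox1 had a low promoter and many intronic sites. The gene (ENSMUSG00000008658.16) spans chr16:5885355-7411526 on the plus strand and is 1526172 bp long. Its tallest promoter peak, at the start site 6349138, measured 1.63 in replicate 1 and 1.15 in replicate 2 (1.39 ± 0.338, SD, n = 2). Only 26.8% and 21.6% of open genes had a lower one. Of 5 groups of start sites, where sites within 500 bp were joined, 2 were open in both replicates. The other open group, at 7193747, lies 844609 bp further into the gene and measured 0.971 and 0.678. A further group at 7069846 had a peak of 0.578 in replicate 1 alone, and the groups at 6809222 and 7224310 had none. The 5′ end of the gene is a start site in the full annotation but not in the basic one. Shared sites there were chr16:5884741-5885260, at 1.39 and 1.05, and chr16:5885081-5885560, at 1.43 and 0.988. Both count as distal by the basic annotation alone, and they are included in the distal counts below.

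Within Rbfox1 the introns held the tallest sites. Of 109 peaks in replicate 1 and 86 in replicate 2, 105 and 82 were distal, and 73 distal sites were shared, 68 of them in introns. Site A, printed above, lies 133506 bp into the gene in intron 1 of transcript Rbfox1-205 and measured 3.62 and 4.44 (4.03 ± 0.575, SD, n = 2). That was 2.22 and 3.86 times the tallest promoter peak of the same replicate, and site A was taller in replicate 2 while the promoter was taller in replicate 1. A site at chr16:5931821-5931980, 46546 bp into the same intron, measured 3.20 and 3.22 (3.21 ± 0.0138). Site C in intron 2 measured 2.55 and 3.20 (2.88 ± 0.459). Shared distal sites were spread over the whole gene, with 18, 13, 20 and 18 in its 4 equal parts from the 5′ end, and the longest stretch without a shared site ran for 81457 bp. The tallest peak called in replicate 1 alone, at chr16:7039541-7039738, measured 1.14. A different peak, at chr16:7049300-7049460, was the tallest called in replicate 2 alone and measured 0.601.

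Rbfox2 had a taller promoter and 1 strong internal site. The gene (ENSMUSG00000033565.18) spans chr15:77078990-77307004 on the minus strand. Its tallest promoter peak measured 4.47 and 3.0 (3.73 ± 1.04, SD, n = 2), with 61.1% and 52.3% of open genes lower. The second start site group, 153116 bp downstream, was open as well at 2.13 and 1.5 (1.82 ± 0.444). Its tallest distal site, chr15:77245501-77245740, measured 3.77 and 2.18 (2.97 ± 1.13) and held the RFX word. In the full annotation 2 further coding start sites, at 77245506 and 77245586, fall in this site, so that it counts as distal by the basic annotation alone. Beside it, intron 1 held sites of 1.19 and 0.93 at chr15:77257461-77257680 and of 0.886 and 0.93 at chr15:77254161-77254404. Near the promoter, replicate 2 had a peak of 1.71 at chr15:77306521-77306820 that no peak of replicate 1 overlapped, yet replicate 1 had a per-base false discovery rate listed at all 300 of its bases. In replicate 1 alone the tallest was 0.794 at chr15:77163421-77163640. Rbfox2 shared 16 of 25 peaks of replicate 1 and 16 of 19 of replicate 2, and 0 shared distal sites lay in the last of its 4 equal parts.

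Rbfox3, the gene of the neuronal marker NeuN, had the densest distal sites of the 6 genes here that fall in the longest 10% of all genes. It (chr11:118489762-118911597, minus strand) had its most 5′ start site, at 118911597, open in replicate 1 alone, with a peak of 1.12. The next group, at 118909550 to 118909572, measured 1.47 and 0.936 (1.20 ± 0.377, SD, n = 2), and an internal start at 118761041 measured 1.37 and 1.25 (1.31 ± 0.0841). The tallest promoter peak was therefore at a different start site in each replicate. These were low for open genes, with 24.5% and 23.5% lower. The full annotation adds open starts at 118569910, with 0.827 and 0.736, and at 118507353, with 2.05 and 2.86, the latter from an intronic peak counted as distal otherwise.

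Site A of Rbfox3, in intron 2 with the CTCF word, measured 3.59 and 4.02 (3.81 ± 0.306, SD, n = 2). Site B in the same intron, with the EGR and NEUROD words, measured 3.12 and 2.93 (3.02 ± 0.131) and overlaps the annotated noncoding gene Gm11750. The third, chr11:118507961-118508180, is the site of 2.05 and 2.86 named above, and it was higher in replicate 2 by 0.67 on the scaled log2 scale. Tallest distal over tallest promoter peak came to 2.44 and 3.21. A site at chr11:118740061-118740300 held the most footprints of the gene, 8 in replicate 1 and 4 in replicate 2. In replicate 1, 38 of 65 peaks (58.5%) were overlapped in replicate 2, and in replicate 2, 38 of 49 (77.6%) in replicate 1. Of the 27 unshared peaks of replicate 1, 14 lay together downstream of the gene, between 118479961 and 118487200, with heights of 0.269 to 0.788 and no base listed in replicate 2. In the gene body alone 37 of 50 (74%) and 37 of 48 (77.1%) were shared. Intron peaks of 1.13 and 1.19 were called in replicate 1 alone and in replicate 2 alone, at chr11:118886629-118886824 and chr11:118885229-118885437.

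Nova1 was the reverse of the long Rbfox genes, with a tall promoter and almost no distal sites. The gene lies at chr12:46694517-46818929 on the minus strand. Its promoter peak measured 7.13 and 6.10 (6.61 ± 0.734, SD, n = 2), with 80.9% and 85.5% of open genes lower. The peak is centred at -621 bp from the GENCODE start, and the RefSeq end of the gene, 46819480, falls inside it. Only 1 distal site was shared, chr12:46817525-46817700, at 0.302 and 0.355, which is 0.0423 and 0.0582 of the promoter peak. The full annotation has a coding start at 46816960, within 1000 bp of this site, so it counts as distal by the basic annotation alone. In the gene body replicate 1 had 3 distal peaks and replicate 2 had 1, over 124413 bp. The tallest peak called in replicate 1 alone, chr12:46721923-46722200, measured 0.341. The promoter peak held the most footprints, 6 in each replicate.

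Nova2 had an equally tall promoter and its distal sites upstream. The gene (chr7:18925888-18965319, plus strand) had a promoter peak of 7.23 and 6.09 (6.66 ± 0.808, SD, n = 2). The upstream site printed above, at -2817 bp, measured 4.03 and 3.25 (3.64 ± 0.548), and 5 of its footprints were overlapped in the other replicate. Another at chr7:18921121-18921420 measured 2.89 and 1.66 (2.27 ± 0.868), and was lower in replicate 2 by -0.61 on the scaled log2 scale. A broad site at chr7:18923261-18924015 measured 1.1 and 0.949. Of 6 shared distal sites 4 lay upstream, 1 downstream and 1 in an exon, and 30892 bp of the gene from the promoter on had no shared site. Replicate 1 had a peak of 1.04 there, chr7:18942561-18942620, without a listed base in replicate 2. The tallest peak in replicate 2 alone measured 0.613, at chr7:18958478-18958528. Most footprints lay in the shared promoter peak and in the printed upstream site, which each had 6 and 5.

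Elavl1, the broadly made member of its family, had the tallest promoter peak of the 9 genes in replicate 1. The gene lies at chr8:4285382-4325413 on the minus strand. The peak, chr8:4325061-4325300, measured 8.11 and 6.66 (7.38 ± 1.02, SD, n = 2) and held the CTCF word CAGGGGGC. This peak also overlaps the neighbouring coding gene Ccl25, so it cannot be assigned to Elavl1 alone by position. The second start site group of Elavl1, at 4312619, had no peak in either replicate. Intron 1 held the printed site, chr8:4322581-4322780, at 1.88 and 2.75 (2.31 ± 0.618), higher in replicate 2 by 0.74 on the scaled log2 scale. It was the largest scaled difference between replicates among the named distal sites. The other shared distal site, chr8:4293316-4293492, measured 0.479 and 0.465. A peak of 6.61 and 3.88 within the 10 kb downstream is the promoter peak of the neighbouring gene Timm44, and it had the most footprints of the region, 5 in each replicate. The tallest peak called in replicate 1 alone measured 0.545, at chr8:4304489-4304602. In replicate 2 alone it was 0.794, at chr8:4324541-4324800, with a rate listed in replicate 1 at all 260 bases.

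Elavl2 was most open at an inner promoter. The gene lies at chr4:91250763-91400785 on the minus strand. The most 5′ of its 4 start site groups, at 91399984, measured 0.433 and 0.465. The group 23488 bp downstream, at 91376434 to 91376496, measured 7.95 and 6.77 (7.36 ± 0.84, SD, n = 2), so it was far above the first in both replicates. The third group, at 91372034 to 91372069, measured 2.00 and 1.57, and the fourth, at 91313403, had no peak. Distal sites were low, the tallest at chr4:91290461-91290660 with 0.965 and 0.646, which was 0.121 and 0.0955 of the promoter peak. The next 2 lie in intron 2, chr4:91374940-91375196 with 0.656 and 0.613 and chr4:91374643-91374913 with 0.617 and 0.484. The peak of the third start group, chr4:91371941-91372200, had the most footprints, 3 and 7. The tallest peaks called in replicate 1 or 2 alone measured 0.578 (chr4:91371673-91371813) and 0.478 (chr4:91244714-91244847). Elavl2 had 11 peaks in each replicate and 10 of them were shared each way.

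Elavl3 carried taller sites upstream than at its start. The gene lies at chr9:22015005-22052023 on the minus strand. Its promoter peak measured 2.55 and 1.96 (2.25 ± 0.417, SD, n = 2), with 39.7% and 36.4% of open genes lower. The printed upstream site measured 3.47 and 2.56 (3.01 ± 0.642), which is 1.36 and 1.31 times the promoter peak. A neighbouring site, chr9:22054661-22055080, measured 2.51 and 2.31, and one at chr9:22061441-22061680 measured 1.77 and 1.90. The latter overlaps the neighbouring gene Zfp653, and all 3 overlap the annotated gene Gm49318, so they cannot be assigned to Elavl3 by position. An intragenic site, chr9:22050321-22050820, had the most footprints of the gene, 9 and 6. The tallest peak called in replicate 1 alone, chr9:22051073-22051420, measured 0.866, and every peak of replicate 2 was shared.

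Elavl4 had low peaks at several start sites, of which 2 distant ones were of like height. The gene lies at chr4:110203722-110351909 on the minus strand. Its first start site group, at 110351909, measured 1.63 and 1.33 (1.48 ± 0.21, SD, n = 2). The 2 peaks behind these values do not overlap. In replicate 1 the tallest was chr4:110351441-110351880 and in replicate 2 chr4:110351901-110352060, and replicate 1 had a listed rate at all 160 bases of the latter. An inner group at 110287527 measured 1.5 and 1.28 (1.39 ± 0.149), and the same peak is the tallest in the window of the neighbouring start at 110286889. That start has a lower shared peak nearer to it, chr4:110286501-110286860, at 0.689 and 0.846. The group at 110290272 measured 0.722 and 0.801, and that at 110292722 had no peak. The tallest distal site, chr4:110227741-110228040, measured 1.35 and 0.891. The next were chr4:110324021-110324220 with 0.591 and 0.755 and chr4:110285441-110285660 with 0.735 and 0.523. Most footprints, 9 and 1, lay in the shared peak at chr4:110351441-110351880. In replicate 1 alone the tallest peak measured 0.551, at chr4:110218884-110219120.

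**Figure D2:**
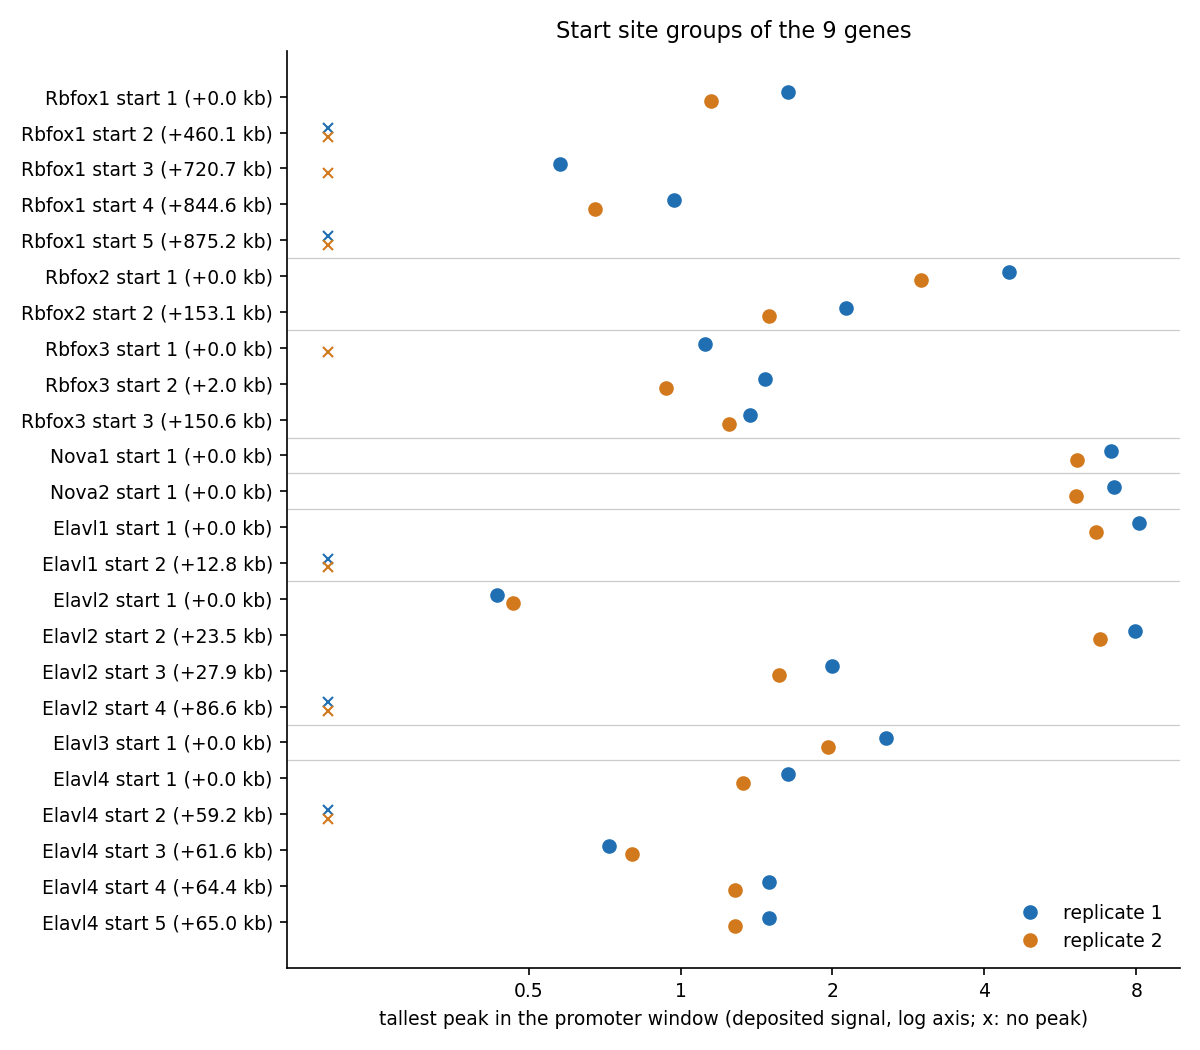
Height (deposited signal, log axis) of the tallest peak within 1000 bp of each start site group, named by its distance from the most 5′ coding start of the basic annotation; points are replicates, crosses are groups without a peak. Elavl2 shows its tallest peak at an inner start, while the starts of Elavl4, Rbfox1 and Rbfox3 all lie at or below 1.63.

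Alternative promoters were open in 5 of the 9 genes. Of the 24 start site groups of the 9 genes, 17 had a peak in both replicates, against 54.6% of all 28499 groups. Groups were counted as separately open where each had a peak of its own in both replicates. Among the 6 genes with several groups, 5 had at least 2 that were separately open: Elavl2 and Elavl4 had 3 each, and Rbfox1, Rbfox2 and Rbfox3 had 2 each. Elavl1 had 1. Over all 5366 genes with several groups this held for 15.5%. Open groups were richer in CpG: the median observed over expected CpG content was 0.716 for all groups open in both replicates and 0.192 for the rest.

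Starts of like CpG content differed in height. The CpG content of the 1 kb around the first Elavl4 start (0.798), the Elavl3 start (0.799) and the main Elavl2 start (0.789) was nearly equal, while their heights were 1.48, 2.25 and 7.36. Among other open groups within 0.05 of each, 15.5%, 26.3% and 82.4% were lower. Rbfox1 (0.662, height 1.39) and Nova2 (0.661, height 6.66) formed a like pair, with 20.6% and 84.3% lower. At the CpG-rich starts of Elavl1 (1.05), Nova1 (1.06), Rbfox2 (0.936) and Rbfox3 (0.752), 81.7%, 72.8%, 42% and 13.6% of their like were lower. At the Elavl2 start 91372034 (0.813, height 1.78) 19.5% were lower. The CpG-poor starts went both ways. At the internal starts of Rbfox2 (0.31), Rbfox3 (0.224) and Rbfox1 (0.211), 69.2%, 59.9% and 38.2% were lower. At the first Elavl2 start (0.361) it was 9.81%, and at 2 inner Elavl4 starts (0.395 and 0.436), whose tallest peak is the same, 52.2% and 47.2%. At the inner Elavl4 start 110290272 (0.534, height 0.761) it was 16%. The 9 genes were few and chosen by name, so this describes them and was not tested.

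**Figure D3:**
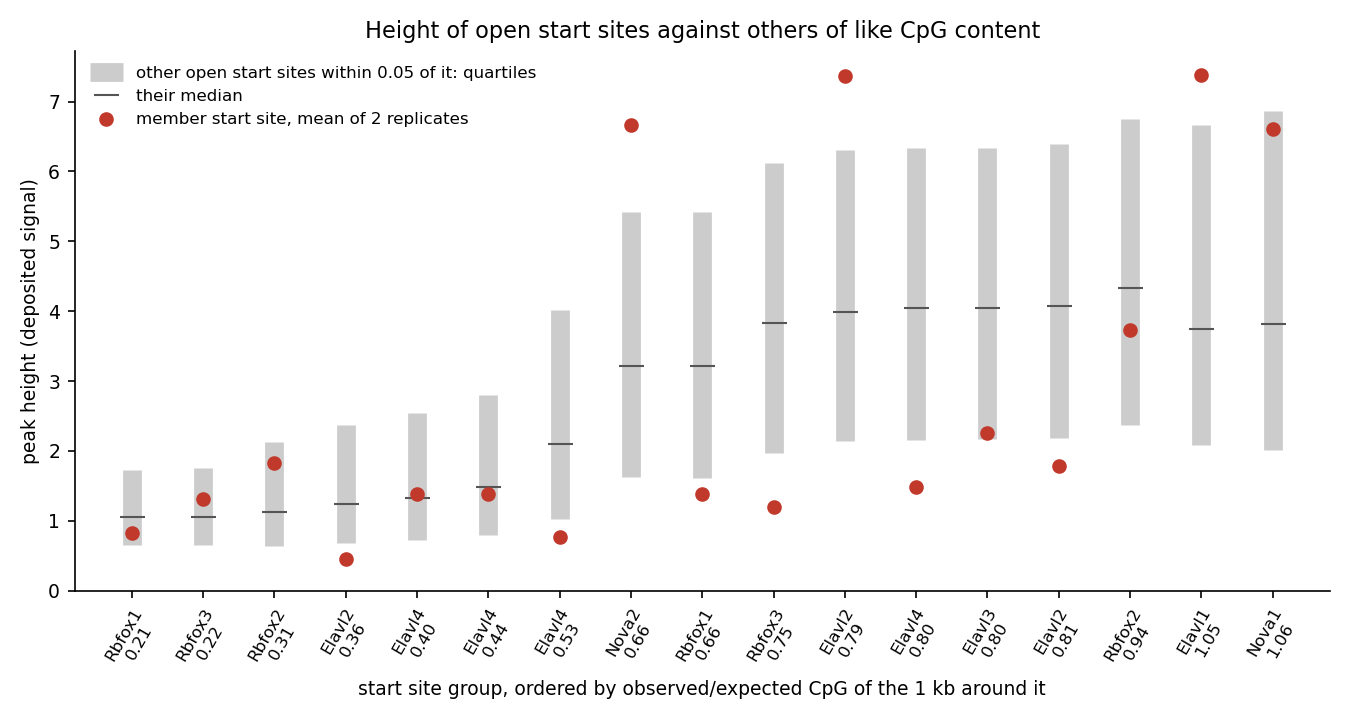
Mean peak height over 2 replicates (deposited signal) of the 17 open start site groups, ordered by observed over expected CpG content (number under each name); grey bars are the quartiles and ticks the median of other open groups within 0.05 of that content. Elavl2, Nova2 and Elavl1 lie above the bars, and starts of Elavl4, Rbfox3, Rbfox1 and Elavl2 lie below them.

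Distal peaks were counted per 10 kb, with genes of like length (the same decile of all genes by length) beside each. Nova2 had 1.68 and 1.35 (1.51 ± 0.238, SD, n = 2), above 97.4% of genes of like length, and Elavl3 had 1.49 ± 0.372, above 97.2%. In the gene body alone these became 0.761 ± 0.359 (74%) and 0.675 ± 0.191 (69.7%), since most of their sites lay in the upstream flank. Rbfox3 had 1.21 ± 0.24, above 96.4%, and stayed at 1.08 ± 0.0168 (93.3%) in the body alone. Rbfox1, though it had the most peaks, had 0.605 ± 0.105, above 63.2%, where the median of like genes was 0.493. Rbfox2 (0.625 ± 0.2, above 65.3%), Elavl1 (0.5 ± 0.236, above 53.4%) and Elavl4 (0.416 ± 0.0841, above 40%) lay within the quartiles of like genes, as did Elavl2 (0.323 ± 0.0416, above 26.7%). Nova1 had 0.138 ± 0.0979, above 7.46%. The median over the 9 genes was 0.679 in replicate 1 and 0.484 in replicate 2, against 0.424 and 0.367 over all genes.

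**Figure D4:**
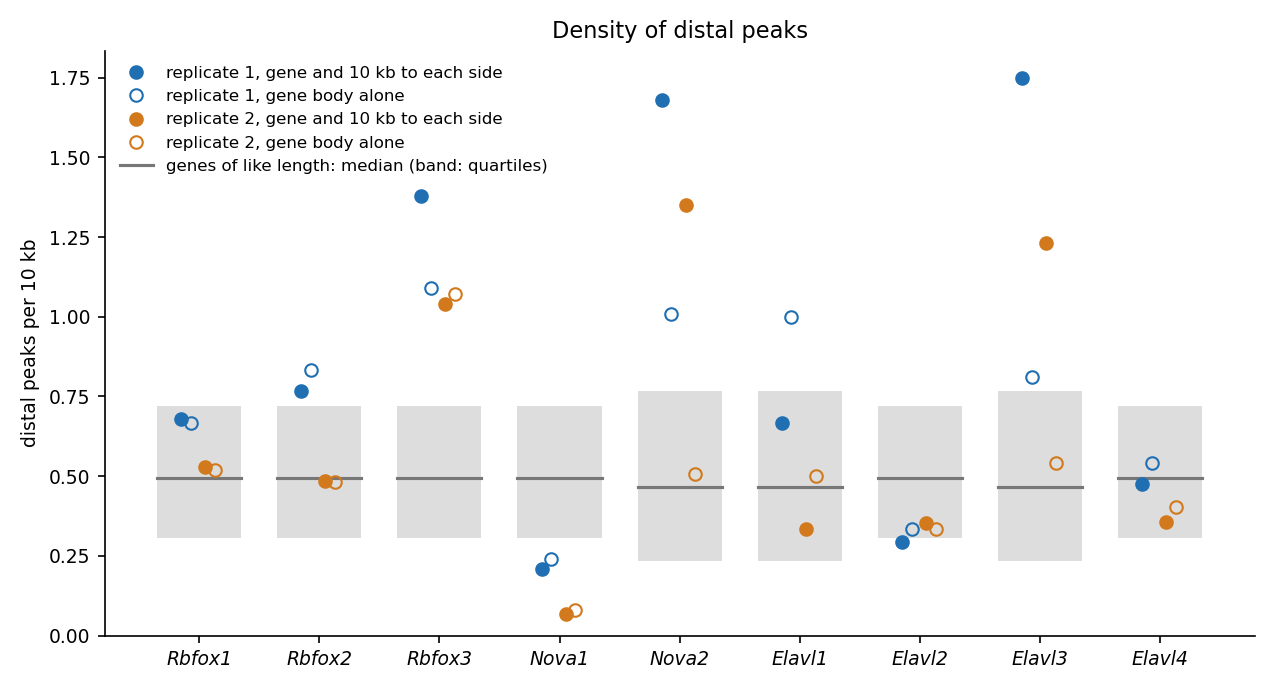
Distal peaks per 10 kb for each gene and replicate, for the gene with 10 kb to each side (filled points) and for the gene body alone (open points); grey bands and lines are the quartiles and median of genes of like length with 10 kb to each side. Rbfox3 stays above the band under both counts, Nova2 and Elavl3 lead through their flanks, and Nova1 lies below it.

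The replicates shared most of these peaks. In replicate 1, 176 of 263 peaks (66.9%) were overlapped by at least 1 bp in replicate 2, against 72.3% of all its peaks, and in replicate 2, 179 of 207 (86.5%) against 84.1%. Of the 87 peaks found in replicate 1 alone, 12 had a base with a listed rate in replicate 2, where 14.4% of all such peaks did. Of the 28 found in replicate 2 alone, 11 had one in replicate 1, against 25.1%. The unshared peaks had a median height of 0.512 and 0.604, against 0.368 and 0.349 for all unshared peaks. All 263 and 207 peaks held a base at a deposited false discovery rate of 0.05 or less in their own replicate. The longer peak list goes with a rate of 0.05, so that count is no separate check. At a rate of 0.001 or less, 151 and 128 of the peaks held a base.

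Shared peaks formed 175 pairs, of which 144 were distal: 122 intronic, 8 exonic, 12 upstream and 2 downstream. Their scaled log2 ratio of replicate 2 to replicate 1 had a median of -0.08 (SD over pairs 0.315), against 0 for all pairs by construction. In 12 of 175 pairs the scaled heights differed by over 1.5-fold, 6 in each direction, where 8.99% of all pairs did. With each step read as a count, 47 of the 175 lay outside the 95% range that counting alone gives, where 30.2% of all pairs did. The median height of distal pairs was 0.9, against 0.717 over all 80562 distal pairs, and that of the 31 promoter pairs in the regions was 1.01, against 1.62 over all 21376.

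**Figure D5:**
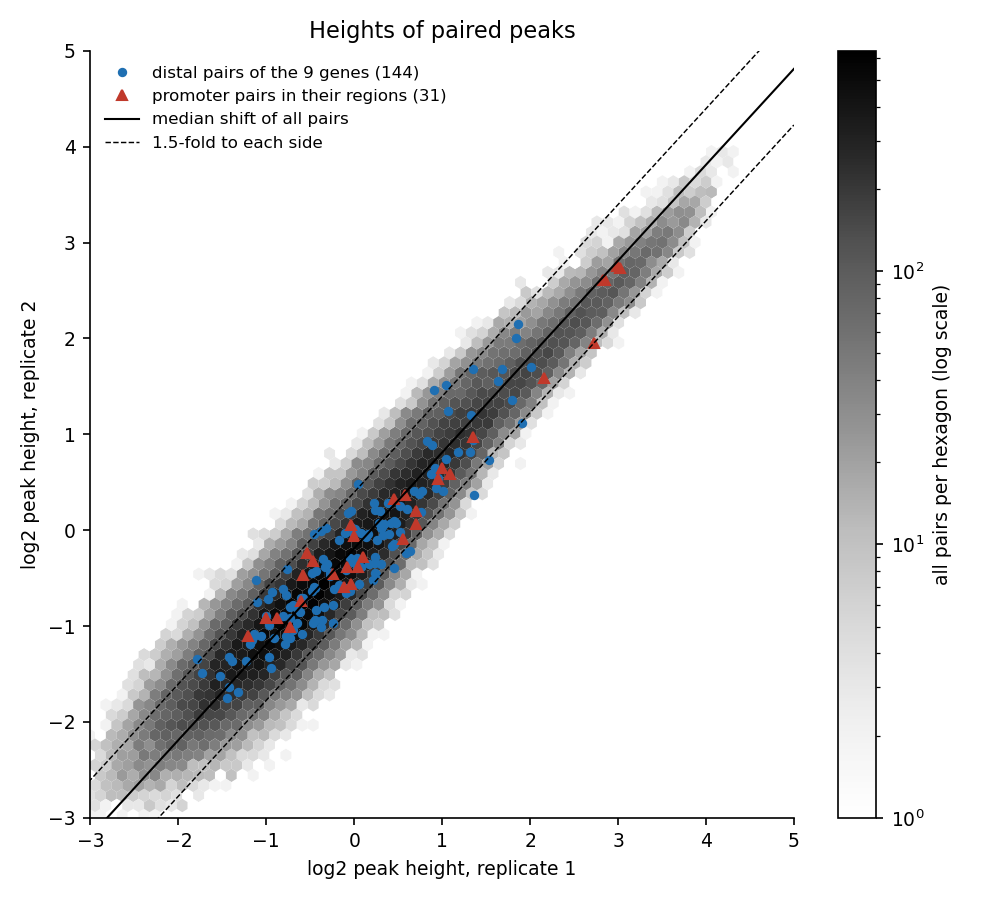
log2 height in replicate 2 against replicate 1 for all 101938 pairs of peaks (grey hexagons, log colour scale) and for the 175 pairs of the 9 genes (distal in blue, promoter in red); the line is the median shift of all pairs and dashed lines mark 1.5-fold to each side. 12 pairs of the 9 genes lie beyond the dashed lines.

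Footprints were found in most of the peaks. In replicate 1, 223 of 263 peaks (84.8%) wholly contained at least 1 footprint, against 77.9% of all its peaks, and in replicate 2, 186 of 207 (89.9%) against 80.8%. Among peaks of the regions at or above the median height of their replicate, the mean share was 95.3%. The share over all peaks of that height was not computed, so 95.3% cannot be set against the shares of all peaks above. Over paired peaks the 9 genes had 2.66 and 2.59 footprints per peak, against 2.59 in both replicates over all pairs. Of their footprints 53.8% and 58.1% were overlapped by one of the other replicate, against 56.6% and 56.4%. The most in a shared site were 8 and 8 in the Rbfox2 promoter peak, chr15:77306841-77307260, with 7 overlapped in the other replicate, and 7 and 9 in the Rbfox1 promoter peak, chr16:6348501-6349220.

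The 12 words searched on both strands in the middle 200 bp of each pair were CAGGGGGC (CTCF), TGACGTCA (CRE), GGGCGG (GC box), GCGCATGCG (NRF1), CCGGAAG (ETS), GCGTGGGCG (EGR), TGANTCA (AP-1), GTTGCCATG (RFX), CTATTTATA (MEF2), CAGATG (NEUROD), TTCAGCACC (REST) and AAGATGGCG (YY1). At least 1 was present in 98 of the 175 pairs (56%), against 51.6% of all pairs. Among distal pairs the commonest was the NEUROD word, in 46 of 144 (31.9%), against 31.2% of all distal pairs. In the promoter pairs of the regions it stood in 8 of 31 (25.8%), against 9.17% of all promoter pairs. Observed over expected CpG content ran from 0.231 to 0.676 in these 8 pairs, while the median of all promoter pairs was 0.75. No share for promoter pairs of like CpG content was set beside it. The GC box stood in 13 of 31 (41.9%), against 48.3%, and the RFX word in 4 of 144 distal pairs (2.78%), against 1.28%. CRE, NRF1 and REST words were in none of the 175 pairs, where 0.796%, 0.687% and 0.327% of all pairs held them. Further words were chosen after the sequences were seen. The short CTCF word AGGGGGC was in 17 of the 175 pairs (9.71%), against 7.53% of all pairs. The box CCAAT was in 34 (19.4%), against 24.9%. The KLF word was in 3 (1.71%), against 0.998%.

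Most genes in a list of other RNA regulators, not all of them neuronal, also had open promoters. Of its 31 genes, 27 were open in both replicates, where 62.6% of all protein-coding genes were. The median height was 3.43, against 3.26 for all open genes. Tallest were Ptbp1 (12 and 8.26), a repressor of neuronal exons, Hnrnpa2b1 (9.82 and 9.19), Tra2b (8.30 and 5.55) and Srsf1 (7.72 and 6.01), the last 3 general splicing factors. Msi1 was open in replicate 1 alone at 0.61. Srrm3, a factor of neuronal microexons, and the epithelial splicing factors Esrp1 and Esrp2 had no promoter peak in either replicate. Srrm3 nevertheless had 12 and 10 distal peaks.

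The gene most like each member was the one nearest in 4 values, the tallest promoter peak and the distal density in each replicate, on a log2 scale. Rbfox3 was nearest to Pif1 (1.48 and 1.30 at the promoter, 1.39 and 1.04 distal peaks per 10 kb), Elavl4 to Meis2 and Elavl1 to Ube2q1. Rbfox1 was nearest to Nnt, Rbfox2 to Hivep1, Nova2 to Ehd1, Elavl2 to Phospho2 and Elavl3 to Asphd1. For Nova1 the nearest gene, Rbm6 (7.21 and 5.62 at the promoter), stood at the largest distance of the 9, 0.26. Likeness over 4 values of the same 2 libraries is a description only.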

How the data were processed

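The deposited peak lists, footprints and per-base false discovery rates of 2 DNase-seq libraries were used. The deposited peak height is a signal of unstated unit, and the deposited false discovery rates are p-value-like numbers from 0 to 1. The build is mm10, per the file headers. The aligner, peak caller and footprint caller were not given in the sources used here. Reads of the hybrid strain placed on a C57BL/6J reference can lose CAST alleles at variant sites, which was not tested. Here peaks were set against GENCODE M21 with Python 3.11.15, numpy 2.4.6 and pandas 2.3.3. A promoter window was 1000 bp to each side of a coding start site, overlap was 1 bp or more, and pairs were mutual best overlaps. No test was run, as there was 1 group. The code was tested on simulated data. The members and lists were chosen with earlier results of these data known. Named were all open start sites, the 3 tallest shared distal sites per gene, the tallest peaks called in 1 replicate alone and the site with most footprints per gene. Alternatives covered peak list, flank, window, overlap, footprints, words, scaling and each replicate.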

Additional observations from a re-analysis of the deposited data

How the results depend on the processing

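Over 56 values under alternative settings, 47 were labelled unchanged and 9 moved. Unchanged meant within the SD between the 2 replicates, or for counts within 1.5 times. For the median log2 height ratio the limit was the SD over pairs, 0.315. Without scaling that ratio went from -0.0791 to -0.269 and was still labelled unchanged. With 2 replicates, each lies within their SD of the mean. Leaving 1 out therefore could not move a value that is not a count. With the shorter peak list the regions held a mean of 130 peaks per replicate in place of 235, the median distal density was 0.327 per 10 kb in place of 0.581, 92% of peaks held a footprint in place of 87.3%, and 61 pairs held a searched word in place of 98. With only peaks at or above the median height the same values were 149 peaks, 0.323 per 10 kb and 95.3%. A flank of 50 kb gave 303 peaks. Leaving out Rbfox1, chosen after seeing the data, gave 138. Without replicate 1 or replicate 2, the peaks ranged from 207 to 263, the distal density from 0.484 to 0.679, the share with a footprint from 84.8% to 89.9%, and the open start site groups from 17 to 19. All 9 genes had an open promoter under the alternatives run, except that 8 had one when only the 5′ end of each gene was used. Rbfox3 then had none in replicate 2, and Elavl2 was at 0.449. The full annotation, added after seeing the data, raised the open groups from 17 to 24 and the tallest Rbfox3 promoter to 2.46. It also added start site groups without a peak, so these 24 are out of more groups than the basic annotation has. The distal density of single genes moved under 26 of 81 settings, which include those without 1 replicate that could not move it. Nova1 had 0 distal peaks under the shorter list. No paired analysis was possible because there was 1 group. Low peaks limit the counts of distal sites, since a peak near the median is about 98 steps.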
